A study of Mus musculus with 76 samples.

Results

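The splicing factor and RNA-binding protein genes described here were taken by their single symbol on the array. It names an SR protein (Srsf), an hnRNP protein (Hnrnp) or a protein of the spliceosomal snRNPs (Snrp). Otherwise it names a subunit of the SF3a or SF3b complex (Sf3a, Sf3b) or a numbered RNA-binding motif protein (Rbm), or is Cirbp. The rule used names only, but it was set with earlier results of these data known. Each gene was represented by the probe set of highest mean signal over all arrays. The rule found 63 genes, with 139 probe sets, among the 11807 genes and 22626 probe sets measured. They were 18 RBM genes, 16 hnRNP genes, 11 snRNP genes, 9 SF3 genes, 8 SR genes and Cirbp. Of the 63 probe sets, 58 had a mean signal above the median of all probe sets.

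Hippocampal RNA of 76 female mice was measured, 1 array per mouse, to ask how a mutant human tau transgene changes gene expression with age. The rTg4510 mice (Tg4510 in the labels) carry human tau with the P301L mutation under a tetracycline-responsive element together with the tetracycline transactivator tTA, which the CaMKIIα promoter drives in forebrain neurons, and were studied at about 1.9 months (10 mice), 4.7 months (10 mice) and 6.1 months (6 mice). The tTA mice carry the transactivator alone and the DN (double negative) mice carry neither transgene, and each had 10 mice at about 4.7 months, 10 at about 6.1 months and 5 at about 10.7 months. All came from crosses of tTA breeders of another strain with FVB/N tau breeders. Mice with only the tau transgene were not analysed here, and the youngest rTg4510 mice had no controls of their age.

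Introns are removed from pre-mRNA by the spliceosome, which is built from small nuclear RNAs and the Sm and other proteins bound to them. The SF3a and SF3b complexes belong to the U2 snRNP and hold it at the branch point. SR proteins bind exons and mostly promote the use of nearby splice sites, hnRNP proteins bind nascent transcripts and often act against them, and neurons use both, with tissue-restricted regulators, to make isoforms of channels, receptors and tau itself. CIRBP belongs to a small group of RNA-binding proteins whose transcripts rise when body or culture temperature falls and decline with heat.

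Differences are given as log2 signal, first group minus second, with the SE from limma, and a gene is called where its Benjamini-Hochberg adjusted p over all probe sets is below 0.05. Array medians were between 5.23 and 5.39, and each array's median correlation with its own group was between 0.99 and 0.9974. The lowest correlation was that of a 6.1 month tTA mouse, number 21, which also had the largest difference between the 3′ and 5′ Gapdh control probe sets (0.438, against at most 0.199 in the other 8 groups). Markers of microglia and of CA1 pyramidal neurons moved with genotype. Those of astrocytes, oligodendrocytes, dentate granule cells, excitatory neurons and vessels are not given here. All 10 microglial markers were higher in rTg4510 than tTA mice at both ages, with a mean score of 8.06 ± 0.47 (SD, n = 10) against 7.06 ± 0.20 at 4.7 months and 8.49 ± 0.24 (n = 6) against 7 ± 0.08 at 6.1 months. Of 4 markers of CA1 pyramidal neurons 3 were lower at 4.7 months and 4 at 6.1 months, with a score of 7.97 ± 0.25 against 8.58 ± 0.10 and 7.51 ± 0.24 against 8.60 ± 0.11. The choroid plexus score was 7.07 in rTg4510 and 5.43 in tTA mice at 4.7 months and 7.26 and 6.5 at 6.1 months, with none of its 8 markers called. In whole hippocampus fewer cells of a type and less RNA per cell cannot be told apart, and the part of these cell types in the results below was not tested.

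The group means of the 63 genes spanned about as wide a range as those of all genes. Over the 9 groups, the means of a gene covered a median of 0.19 log2 units, against 0.191 over all genes, and the median within-group SD was 0.107 against 0.129. The widest spans were those of Cirbp (0.70), of Srsf10 (0.52), an SR-related protein that can repress splicing, and of Srsf6 (0.46), an SR protein known to act on tau exon choice. The span of Srsf10 is widened by tTA mouse 21, at 4.43 with the next at 5.58, in the group of lowest mean. The lowest group mean of a gene was most often that of the 6.1 month rTg4510 mice (17 of 63 genes, against 23.3% of all genes, in a group of 6 mice) or the 1.9 month rTg4510 mice (15 of 63, against 13%), and the highest most often that of the 4.7 month DN mice (15 of 63, against 12.7%). In all, 23 of the 63 genes (36.5%) were called in at least 1 of 13 comparisons, against 32.5% of all genes. Their called differences lay between 0.11 and 0.40 in size, with the oldest minus the youngest group taken for a test over 3 ages.

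At 4.7 months 1 of the 63 genes was called in rTg4510 against tTA mice, against 9.1% of all genes, and it was lower. Lower calls made up 3.38% and higher calls 5.73% of all genes. The median difference of the 63 genes was -0.026, against -0.009 over all genes, with 41 of the 63 below 0 and 6 at an unadjusted p below 0.05, against 22.3% of all genes. By role, the largest differences that were not called were -0.19 ± 0.09 for Srsf10 (adjusted p = 0.214), -0.18 ± 0.06 for Snrpa1, the U2 snRNP protein A′ (0.0863), -0.10 ± 0.07 for Sf3a2 (0.457) and -0.08 ± 0.07 for Hnrnph1 (0.563).

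The called gene was Rbm43, a little-studied RNA-binding motif protein. Its log2 signal ran from 7.23 to 7.84 with a median of 7.67 in rTg4510 mice and from 7.81 to 8.18 with a median of 7.90 in tTA mice. In 9 of 10 rTg4510 mice it was below every tTA mouse. The difference was -0.30 ± 0.06, a signal 0.81 times that of tTA mice (limma, adjusted p = 0.000902). At 6.1 months the 6 rTg4510 mice ran from 7.47 to 7.81 with a median of 7.55, and the 10 tTA mice from 7.81 to 8.08 with a median of 7.88. The groups did not overlap before rounding, and the difference was -0.33 ± 0.05 (adjusted p = 7.08e-05). DN mice lay between them, with medians of 7.79 at 4.7 months and 7.82 at 6.1 months. Against DN mice the difference was -0.13 ± 0.06 at 4.7 months (adjusted p = 0.128) and -0.22 ± 0.05 at 6.1 months (adjusted p = 0.00332), where 4 of 6 rTg4510 mice were below every DN mouse. In tTA mice Rbm43 was 0.16 ± 0.06, 0.10 ± 0.05 and 0.14 ± 0.08 above DN mice at 4.7, 6.1 and 10.7 months, none of these called (adjusted p = 0.12, 0.235 and 0.711). At 1.9 months the rTg4510 mice ran from 7.65 to 7.84. Rbm43 stayed called against tTA mice at both ages with each array left out in turn. The interaction, by which the effect changed between these ages, was -0.03 ± 0.09 (adjusted p = 0.963).

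**Figure D1:**
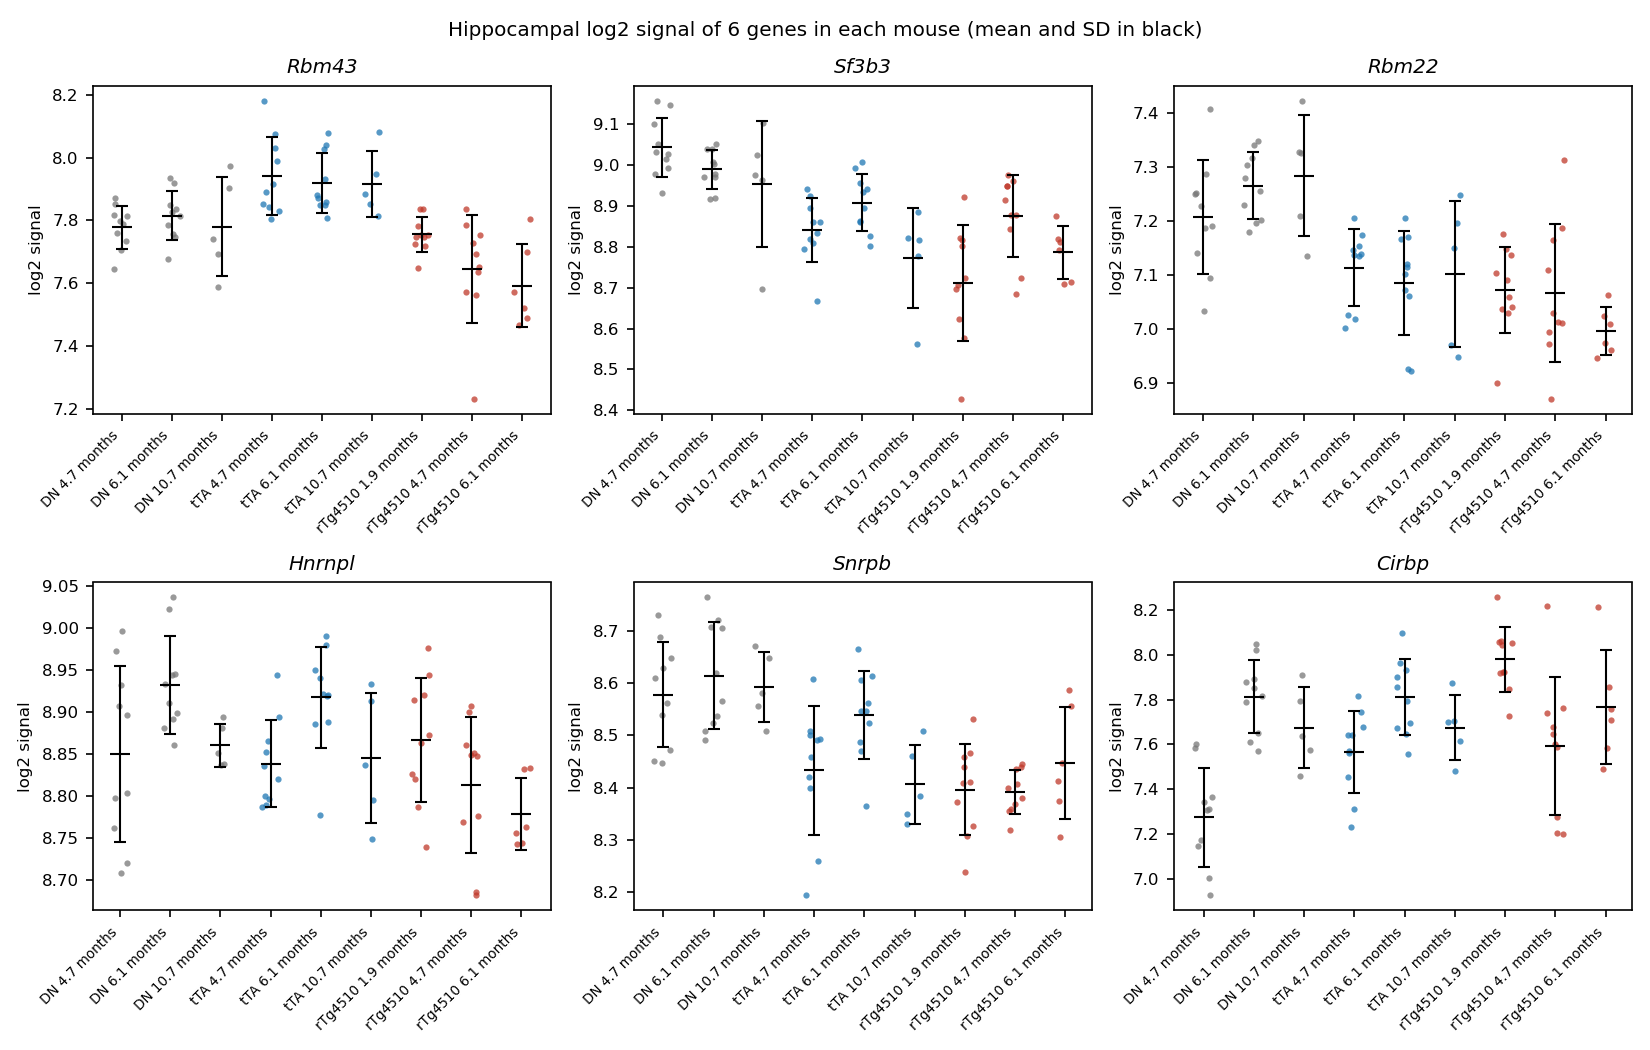
Log2 signal of 6 genes in each mouse by group (grey DN, blue tTA, red rTg4510), with the group mean and SD in black. Rbm43 in rTg4510 mice of 6.1 months lies between 7.47 and 7.81 and in tTA mice between 7.81 and 8.08, Rbm22 and Sf3b3 are highest in DN mice, and Cirbp is lowest in DN mice of 4.7 months. The vertical axes start above 0 and differ between panels.

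At 6.1 months 6 of the 63 genes were called in rTg4510 against tTA mice, all of them lower, against 14.9% of all genes in either direction and 8.64% lower. The 63 genes had a median difference of -0.043, against -0.02 over all genes, with 43 of 63 below 0 and 15 at an unadjusted p below 0.05, against 26.6% of all genes. The share called was thus close to that of all genes in the lower direction, and no member was called higher, against 6.23% of all genes. With arrays centred on their medians 11 members were called, and centring moved the median difference of all probe sets by -0.031. With the microglia or the CA1 pyramidal score as a covariate 0 were called, as was the case at 4.7 months. These scores hardly overlapped between rTg4510 and control mice, so such a fit has little to separate score from genotype. The shares of all genes called in these fits are not given here.

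Beside Rbm43, the called RBM genes at that age were Rbm14, a coactivator that sits in paraspeckles, and Rbm42, a binding partner of hnRNP K. Rbm14 ran from 6.64 to 7.08 with a median of 6.91 in rTg4510 mice and from 7.02 to 7.50 with a median of 7.15 in tTA mice, and 4 of 6 rTg4510 mice were below every tTA mouse. The difference was -0.27 ± 0.07 (adjusted p = 0.00551), and 2 of the 4 other probe sets of Rbm14 were also called, at -0.25 and -0.23. The remaining probe sets gave -0.14 and -0.02. The probe set of Rbm14 used here is of a kind that can bind related sequences. Rbm42 differed by -0.13 ± 0.04 (adjusted p = 0.0381). Its other probe sets gave -0.25 ± 0.07 (adjusted p = 0.0121) and 0.07 ± 0.08 (adjusted p = 0.67), the latter on a dim probe set with a mean log2 signal of 3.30.

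Hnrnpl, a regulator of exon inclusion that binds CA repeats, was the called hnRNP gene. It ran from 8.74 to 8.83 with a median of 8.76 in rTg4510 mice and from 8.78 to 8.99 with a median of 8.92 in tTA mice. The difference was -0.14 ± 0.04 (adjusted p = 0.00806), with 4 of 6 rTg4510 mice below every tTA mouse, and it stayed called with each array left out in turn. Against DN mice, which ran from 8.86 to 9.04, all 6 rTg4510 mice were lower (-0.15 ± 0.04, adjusted p = 0.00243). At 4.7 months the differences from tTA and DN mice were not called, the first being -0.03 ± 0.04.

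Sf3b3, the subunit of SF3b with a large propeller fold, differed by -0.12 ± 0.04 (adjusted p = 0.0308) and Snrpn, an Sm protein made from the imprinted Prader-Willi region and abundant in neurons, by -0.11 ± 0.04 (adjusted p = 0.0362). In each, 3 of 6 rTg4510 mice were below every tTA mouse. Sf3b3, Snrpn and Rbm42 were each lost on leaving out single arrays, with the highest adjusted p at 0.0924 and 0.14 without rTg4510 mouse 7 for the first and second and 0.107 without mouse 11 for the third. No SR gene was called, the largest difference being 0.15 ± 0.09 for Srsf2 (adjusted p = 0.302), and among the snRNP genes the largest was that of Snrpa1 (-0.21 ± 0.08, adjusted p = 0.0907). In the interaction between the ages none of the 63 genes and none of all genes was called in limma, with 5 of the 63 and 7.32% of all genes at an unadjusted p below 0.05.

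**Figure D2:**
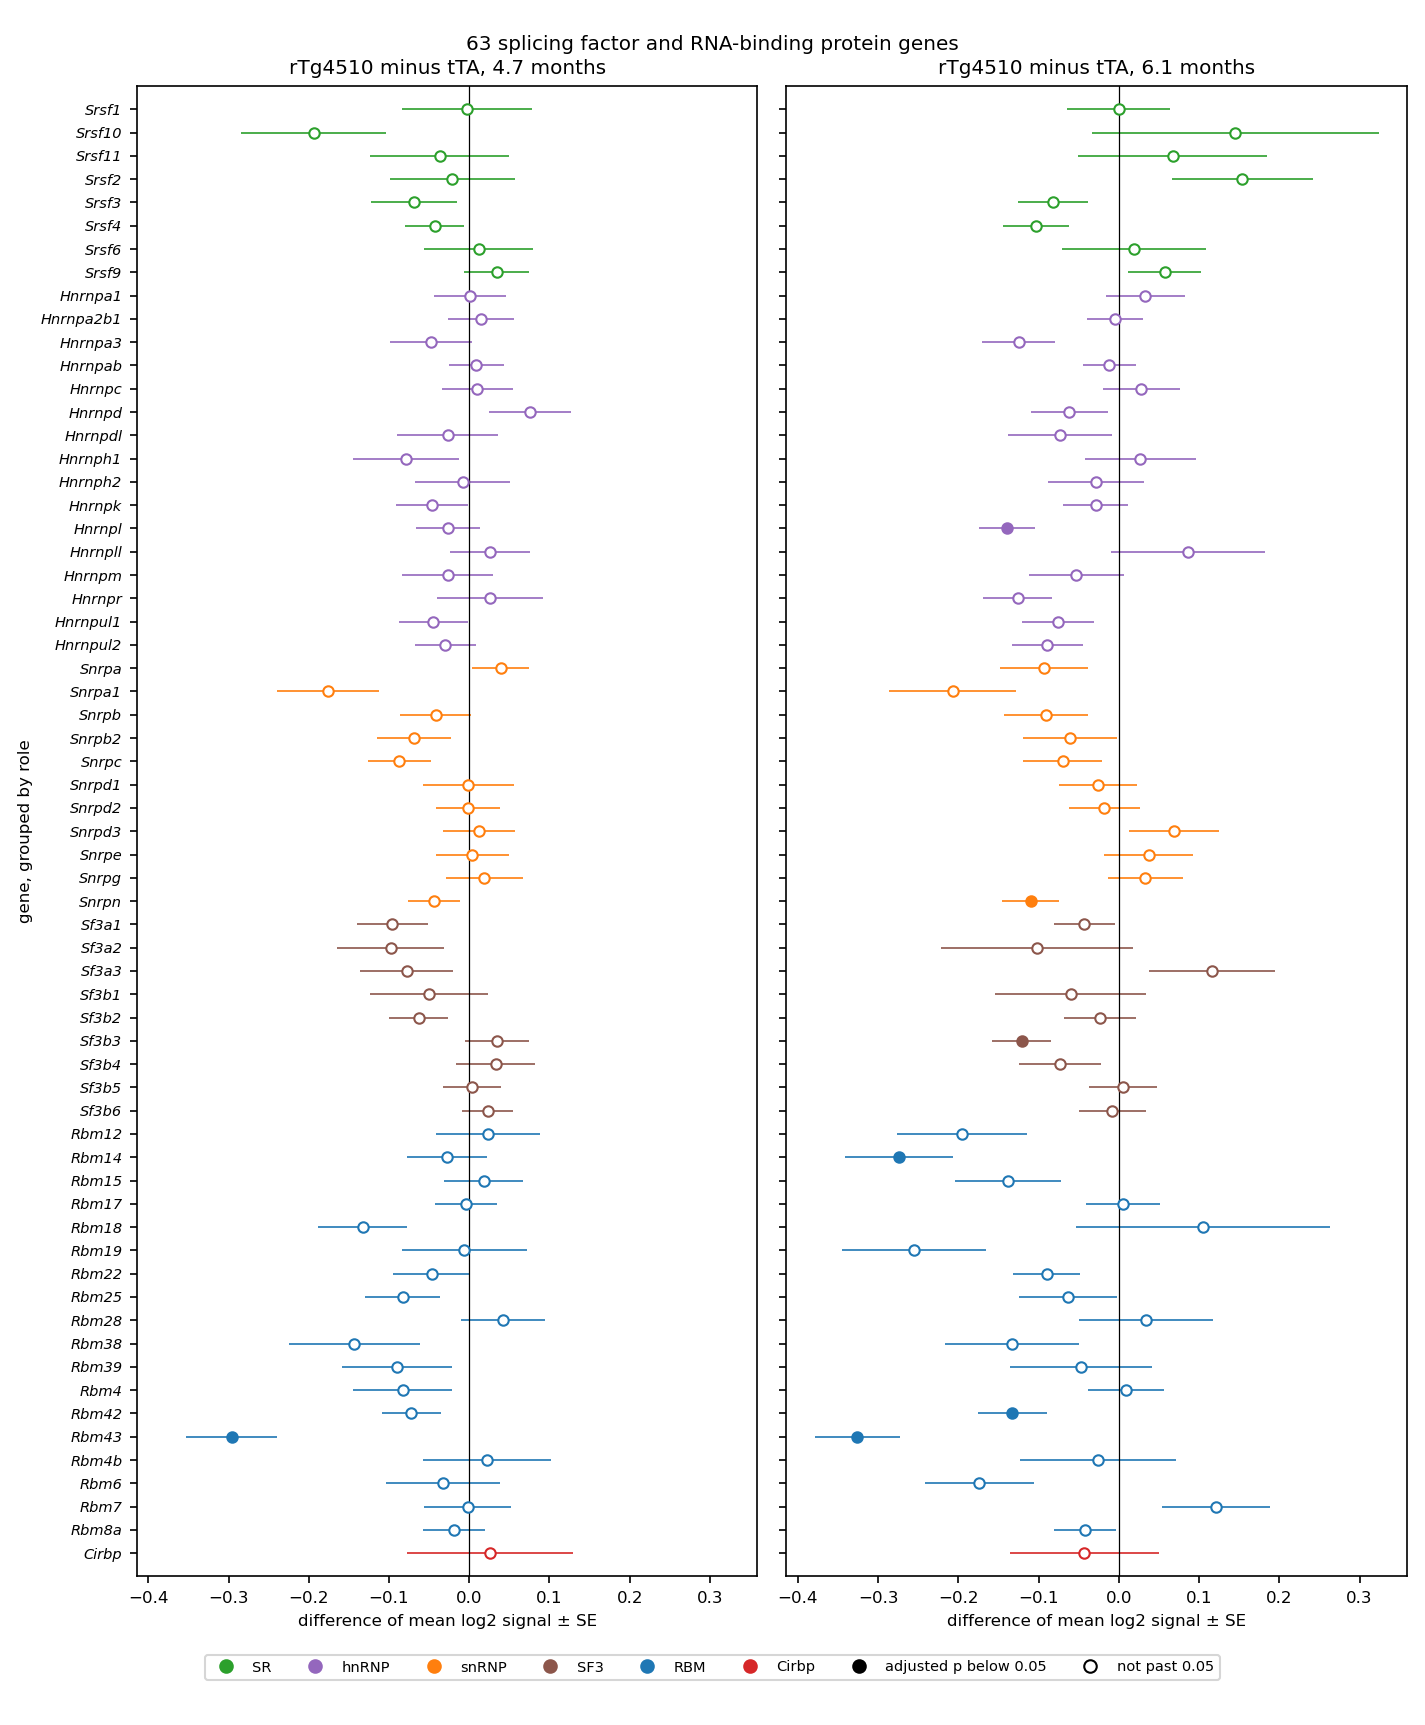
Difference of mean log2 signal between rTg4510 and tTA mice with its SE for each of the 63 genes at 4.7 months (left) and 6.1 months (right), coloured by role, filled where the adjusted p is below 0.05. All filled points lie below 0, 1 at 4.7 months and 6 at 6.1 months, and Rbm43 is the only gene filled in both panels.

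Several genes had another probe set that was called where the brightest was not. For Snrpd3, a core Sm protein, the brightest probe set gave 0.07 ± 0.06 against tTA mice at 6.1 months (adjusted p = 0.512), while the other probe sets gave -0.23 ± 0.06 (adjusted p = 0.00826) and -0.26 ± 0.05 (adjusted p = 0.000624). For Sf3a1, the scaffold of SF3a, the other probe set was lower by 0.25 at 4.7 months and by 0.22 at 6.1 months, as differences of -0.248 ± 0.069 (adjusted p = 0.0224) and -0.224 ± 0.068 (adjusted p = 0.0286), and the brightest gave -0.10 ± 0.04 and -0.04 ± 0.04. For Sf3b1, which contacts the branch point, 1 of 3 probe sets was called at 6.1 months (-0.25 ± 0.07, adjusted p = 0.0147) and the others gave -0.06 and -0.05. A dimmer probe set of Rbm18 was called at 6.1 months (-0.215 ± 0.072, adjusted p = 0.0466). For the SR gene Srsf3 a dimmer probe set was called at 4.7 months (-0.116 ± 0.034, adjusted p = 0.0315). Another of its probe sets gave -0.177 ± 0.073 and was not called (adjusted p = 0.149). Which transcripts these probe sets bind was not tested.

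Against DN mice more of the genes were lower. At 4.7 months 12 of the 63 genes were called, 10 lower and 2 higher, against 15.8% of all genes, of which 7.91% lower and 7.85% higher. The median difference was -0.039 against -0.013 over all genes, and 21 of the 63 genes had an unadjusted p below 0.05, against 28.2% of all genes. At 6.1 months 11 were called, all lower, against 19.9% of all genes, of which 11.4% lower and 8.55% higher, with a median of -0.069 against -0.02. With the microglia or the CA1 score as a covariate 1 was called at 4.7 months and 0 at 6.1 months, with the limits given above for such fits. These comparisons share the rTg4510 mice with those above, and the fits for tTA minus DN share the DN mice.

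At 4.7 months the lower genes were spread over the roles. Snrpb, which encodes the Sm proteins B and B′, ran from 8.32 to 8.45 with a median of 8.39 in rTg4510 mice and from 8.45 to 8.73 with a median of 8.59 in DN mice, and all 10 rTg4510 mice were below every DN mouse. The difference was -0.19 ± 0.04 (adjusted p = 0.00335). Sf3b3 differed by -0.17 ± 0.04 (adjusted p = 0.00389) and Sf3a1 by -0.16 ± 0.04 (adjusted p = 0.0129). Among hnRNP genes Hnrnpm, which binds GU-rich sites, differed by -0.22 ± 0.06 (adjusted p = 0.00811) and Hnrnpc, which binds uridine tracts and masks cryptic exons, by -0.15 ± 0.04 (adjusted p = 0.021). Rbm14 was lower by 0.19, as a difference of -0.187 (adjusted p = 0.00972), and the other calls were Srsf10 (-0.28 ± 0.09, adjusted p = 0.0377), Rbm28 (-0.16 ± 0.05, 0.0456), Rbm22 (-0.14 ± 0.05, 0.0459) and the U1 protein gene Snrpa (-0.11 ± 0.04, 0.0372). Of the other probe sets of Srsf10, 2 were also called lower, at -0.40 and -0.24.

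At 6.1 months the gene of smallest adjusted p was Rbm22, part of the active spliceosome near the U6 snRNA. It ran from 6.95 to 7.06 with a median of 6.99 in rTg4510 mice and from 7.18 to 7.35 with a median of 7.27 in DN mice. The groups did not overlap, and the difference was -0.27 ± 0.04 (adjusted p = 2.8e-05). Sf3b3 did not overlap either, from 8.71 to 8.88 in rTg4510 mice and from 8.92 to 9.05 in DN mice (-0.20 ± 0.04, adjusted p = 0.000221). Rbm12 had the largest difference (-0.32 ± 0.08, adjusted p = 0.00611), with 3 of 6 rTg4510 mice below every DN mouse. The remaining calls were Rbm14 (-0.28), Rbm43 (-0.22), Hnrnpa3 (-0.20), Snrpb (-0.17), Hnrnpr (-0.16), Hnrnpl (-0.15), Hnrnpul2 (-0.14) and Sf3a1 (-0.13). Their adjusted p lay between 0.00243 and 0.0257, and the highest adjusted p on leaving out an array was 0.116 for Hnrnpul2 (without rTg4510 mouse 7), 0.0827 for Snrpb (mouse 8) and 0.0611 for Sf3a1 (mouse 11). Some genes had dimmer probe sets called lower in this comparison while the brightest was not called. Among them were Snrpd3 (-0.301 and -0.243), Sf3b1 (-0.277) and Srsf3 (-0.272 and -0.121). The remaining dimmer probe sets of Sf3b1 and Srsf3 were not called.

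**Figure D3:**
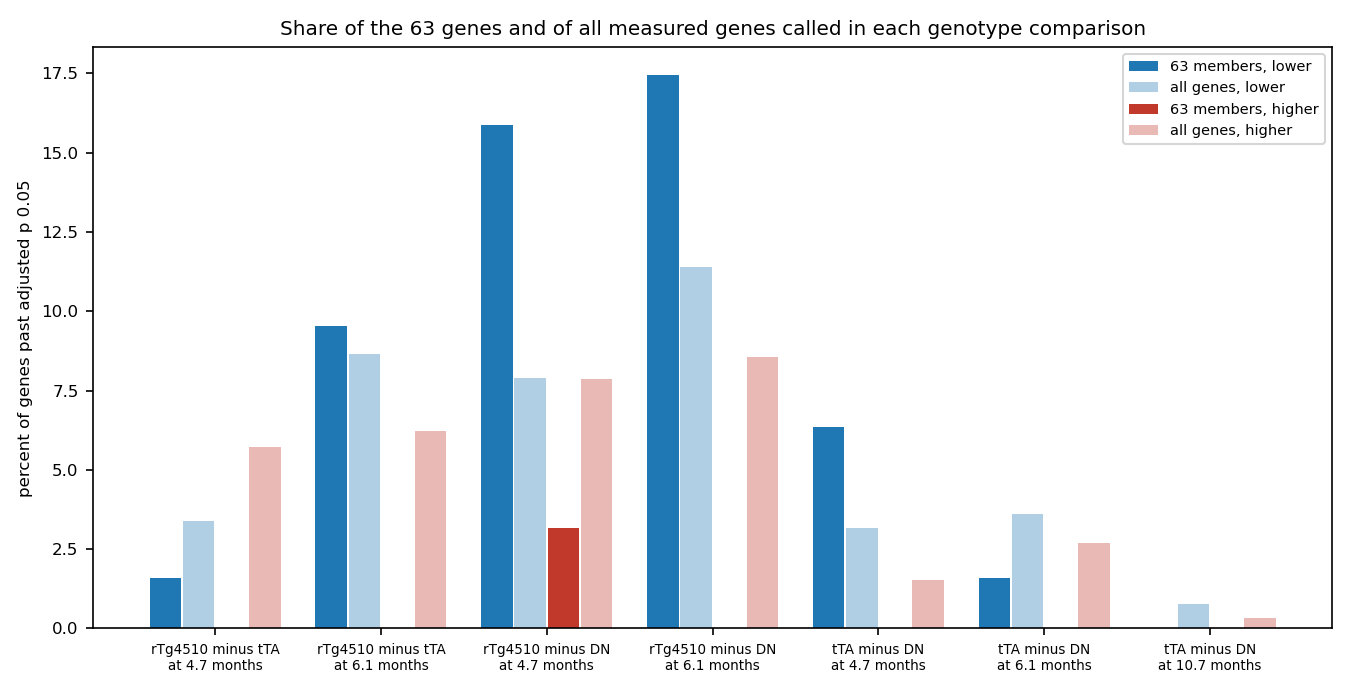
Percent of the 63 genes (dark bars) and of all 11807 genes (light bars) with an adjusted p below 0.05 in each genotype comparison, lower in blue and higher in red. At 6.1 months in rTg4510 minus DN 11 of the 63 genes are called lower and 11.4% of all genes. The comparisons share groups of mice.

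The transactivator alone was compared with DN mice as well. In tTA against DN mice at 4.7 months 4 of the 63 genes were called, all lower, against 4.67% of all genes, of which 3.16% lower and 1.51% higher. Sf3b3 ran from 8.67 to 8.94 with a median of 8.85 in tTA mice and from 8.93 to 9.16 with a median of 9.03 in DN mice, with 9 of 10 tTA mice below every DN mouse. The difference was -0.20 ± 0.04 (adjusted p = 0.00137), beside -0.17 in rTg4510 against the same DN mice. Because both subtract these DN mice, such pairs of values are not independent. For Snrpa it was -0.15 ± 0.04 (adjusted p = 0.0096), beside -0.11, for Rbm28, a nucleolar protein, -0.20 ± 0.05 (adjusted p = 0.0231), beside -0.16, and for Hnrnpc -0.16 ± 0.04 (adjusted p = 0.0319), beside -0.15. A dimmer probe set of Hnrnpdl was called higher in tTA than DN mice (0.24 ± 0.07, adjusted p = 0.042). Another gave 0.13 ± 0.25 (adjusted p = 0.898), and the brightest was not called.

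At 6.1 months only Rbm22 was called in tTA against DN mice, against 6.32% of all genes, of which 3.62% lower and 2.7% higher. It ran from 6.92 to 7.20 with a median of 7.11 in tTA mice, and 9 of 10 were below every DN mouse (-0.18 ± 0.04, adjusted p = 0.00223). In rTg4510 against tTA mice Rbm22 was not called at that age, at -0.09. A dimmer probe set of Srsf6 was called higher in tTA than DN mice at 6.1 months (0.28 ± 0.07, adjusted p = 0.0192). Another gave 0.188 ± 0.095 (adjusted p = 0.332), and the brightest was not called. At 10.7 months none of the 63 genes was called in limma, against 1.1% of all genes (0.762% lower and 0.339% higher), and 5 had an unadjusted p below 0.05, against 9.84% of all genes. Rbm22 was at -0.18 there, the size seen at 6.1 months, though it was not called. The 5 tTA mice had Rbm22 values up to 7.25 and the 5 DN mice values down to 7.13, so that the groups overlapped. Sf3b3 was also at -0.18 at 10.7 months and not called. A test of whether tTA minus DN differed among the 3 ages called none of the 63 genes and 9 of all 22626 probe sets.

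Cirbp was 1 of the 2 genes called higher. In DN mice of 4.7 months it ran from 6.93 to 7.60 with a median of 7.31, the lowest of the 9 groups. The rTg4510 mice of that age ran from 7.20 to 8.22 with a median of 7.62, and the tTA mice from 7.23 to 7.82 with a median of 7.60. All 3 genotypes overlapped, with 5 of 10 mice of each transgenic group above every DN mouse. Cirbp was 0.32 ± 0.10 higher in rTg4510 than DN mice (adjusted p = 0.0364) and 0.29 ± 0.10 higher in tTA than DN mice (adjusted p = 0.13), with 0.03 ± 0.10 between rTg4510 and tTA mice (adjusted p = 0.93). The first call was lost in 9 of 30 fits that left out an array, and its adjusted p was 0.0543 without moderated variances. The other higher gene against DN mice was Hnrnpd, which encodes the mRNA decay factor AUF1 (0.16 ± 0.05, adjusted p = 0.0291).

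At 6.1 months the group means of Cirbp were 7.77 in rTg4510, 7.81 in tTA and 7.81 in DN mice, and no difference was called. With age, Cirbp changed in DN mice (F test over 3 ages, adjusted p = 0.00698, against 0.364% of all genes called, 0.22% lower and 0.144% higher at the oldest age), from a mean of 7.28 ± 0.22 at 4.7 months to 7.81 ± 0.16 at 6.1 months and 7.68 ± 0.18 at 10.7 months. The 5 oldest DN mice ran from 7.46 to 7.91. That call stayed with each of the 25 arrays left out in turn. In rTg4510 mice the mean was highest at 1.9 months (7.98 ± 0.14), 7.59 ± 0.31 at 4.7 months and 7.77 ± 0.25 at 6.1 months (F test, adjusted p = 0.0765). In tTA mice the F test gave an adjusted p of 0.289.

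The promoter of Cirbp is shown because a short element in it, TCCCCGCC, is known as a mild cold response element. The 250 bases before the first of its start sites in RefSeq (GRCm38.p6, chr10:80167589-80167838, plus strand) hold 1 copy on the same strand, in capitals, which begins 247 bases before the start.

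Cirbp: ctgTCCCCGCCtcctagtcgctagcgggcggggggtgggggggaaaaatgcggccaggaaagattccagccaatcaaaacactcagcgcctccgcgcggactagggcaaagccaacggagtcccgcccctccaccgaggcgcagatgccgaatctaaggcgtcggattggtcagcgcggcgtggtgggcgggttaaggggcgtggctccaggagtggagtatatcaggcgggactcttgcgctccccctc

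The window before its other start site holds no copy. Searched on both strands in windows of the same length, these letters occur before at least 1 start site of 5.37% of 27025 genes and of 2 of the 55 members in the table. The match is a description of the sequence, not of a site in use.

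Heat shock genes encode chaperones, many of them induced by heat. The level of those listed was highest where that of Cirbp was lowest. The mean log2 signal of 11 such genes was 9.80 ± 0.11 (n = 10) in DN mice of 4.7 months and between 9.57 and 9.66 in the other 8 groups. Against those DN mice 3 of the 11 were lower in tTA mice and 2 in rTg4510 mice. The shares of all genes called lower were 3.16% and 7.91%. Of the heat shock genes that were lower, Hspb1, a small heat shock protein, was lower by 0.72 in tTA mice, as a difference of -0.722 ± 0.108 (adjusted p = 3.15e-05). Cryab was at -0.42 and the endoplasmic reticulum chaperone gene Hspa5 at -0.41. The rest of the list is not given here. At 6.1 months, where Cirbp did not differ between tTA and DN mice, Hspb1 was 0.59 ± 0.17 higher in tTA mice (adjusted p = 0.0401). Across the 76 mice, with group means removed, Cirbp was lower where the heat shock score was higher (Pearson r = -0.43, permutation p = 0.00023, adjusted p = 0.00046, Spearman rho = -0.44, permutation p = 0.00032, adjusted p = 0.00064). Without the 2 mice farthest out on the heat shock score r was -0.46 (permutation p = 5e-05). The correlation was below 0 in each of the 7 groups of 6 mice or more, from -0.88 to -0.03. With the score of 13 circadian genes, the other relation computed, r was 0.28 (permutation p = 0.0712, adjusted p = 0.0712, rho = 0.23, permutation p = 0.0683) and 0.33 without the 2 mice farthest out (permutation p = 0.0297). Both relations were chosen after seeing the data, and the body temperature of the mice and the time of day of collection were not tested.

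**Figure D4:**
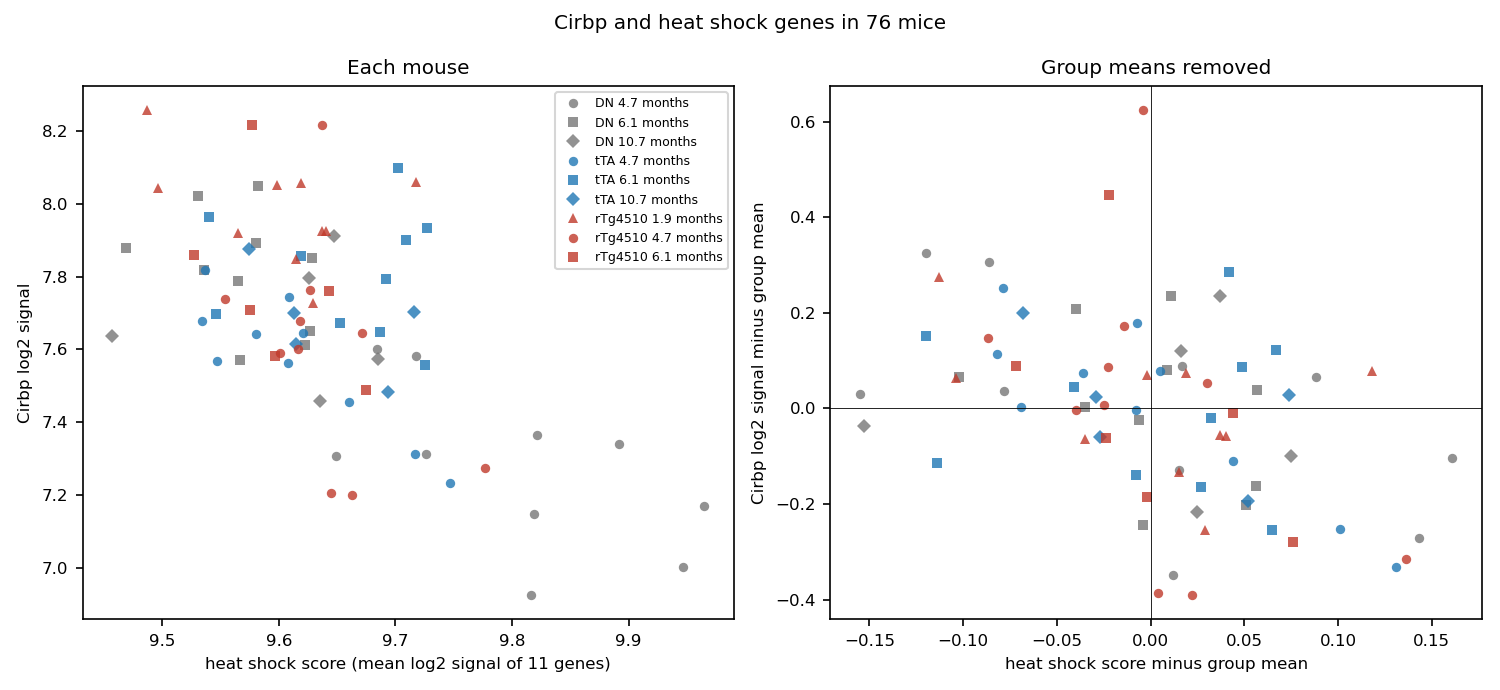
Cirbp log2 signal against the heat shock score, the mean log2 signal of 11 heat shock genes, in 76 mice, as measured (left) and with the mean of each group removed (right), coloured by genotype with a marker for each age. The DN mice of 4.7 months reach the highest heat shock scores and the lowest Cirbp signals, and within groups r is -0.43.

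With age in rTg4510 mice, 1 of the 63 genes was called between 1.9 and 6.1 months, against 4.12% of all genes, of which 2.28% lower and 1.85% higher. It was Rbm18, which differed by -0.22 ± 0.05 (adjusted p = 0.0186), with all 6 mice of 6.1 months below every mouse of 1.9 months. Its other probe set gave -0.10 (adjusted p = 0.499), and the call was lost without mouse 75 of 6.1 months (adjusted p = 0.0522). Between 1.9 and 4.7 months none was called in limma, against 0.889% of all genes (0.483% lower and 0.407% higher), and 18 of the 63 had an unadjusted p below 0.05, against 13.7% of all genes. Dimmer probe sets of Snrpd3 and Snrpn were lower at 6.1 than 1.9 months, at -0.21 ± 0.05 (adjusted p = 0.0202) and -0.16 ± 0.04 (adjusted p = 0.0317). The F test over the 3 ages called Rbm18 and Snrpc, a U1 protein gene (F test, adjusted p = 0.0415), against 2.87% of all genes, of which 1.6% were lower and 1.27% higher at 6.1 months. Snrpc was -0.16 ± 0.05 at 6.1 against 1.9 months, a difference that was not itself called.

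Over the 3 ages of tTA mice none of the 63 genes was called, against 0.296% of all genes (0.119% lower and 0.178% higher at the oldest age), and 5 had an unadjusted p below 0.05, against 11% of all genes. In DN mice the other call was Srsf6, which ran from 8.46 to 8.72 at 4.7 months and from 8.09 to 8.43 at 10.7 months and so did not overlap (-0.33 ± 0.08, F test, adjusted p = 0.0301). The other probe sets of Srsf6 gave -0.19 and -0.13 and were not called. A dimmer probe set of Srsf10 was called in the same test (-0.20 ± 0.08, adjusted p = 0.0146), while its remaining dimmer probe sets gave -0.14 and -0.14 (adjusted p = 0.206 and 0.595). In rTg4510 mice 1 of the other probe sets of Srsf6 was higher at 6.1 than 1.9 months (0.30 ± 0.08, adjusted p = 0.0238). The brightest probe set of Srsf6 gave 0.25 ± 0.09 (adjusted p = 0.142).

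Among other genes of splicing and mRNA binding, listed by role with earlier results of these data known, 108 of 145 were measured. In rTg4510 against tTA mice 1 was higher and 4 were lower at 4.7 months, and 3 were higher and 13 lower at 6.1 months, with medians of -0.036 and -0.046. The shares of all genes called higher at these ages were 5.73% and 6.23%, and the shares called lower 3.38% and 8.64%. By role, 6 of 28 regulators restricted to neurons or to other tissues were lower at 6.1 months and 2 higher, beside 4 of 31 U2 auxiliary, Prp and helicase genes, 1 of 9 Lsm genes and 1 of 21 SR kinases and SR-like genes, all lower. The remaining calls, in both directions, were among the 19 FET and paraspeckle genes measured. Ddx5 and Celf2, the brightest of those not called, gave -0.11 ± 0.04 and -0.12 ± 0.05 (adjusted p = 0.0579 and 0.0915).

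Rbfox3, the neuronal splicing regulator also known as the marker NeuN, differed by -0.21 ± 0.06 at 4.7 months (adjusted p = 0.0288) and by -0.34 ± 0.06 at 6.1 months (adjusted p = 0.000291), when its mean was 7.33 ± 0.20 (SD, n = 6) against 7.67 ± 0.11 (n = 10). Ptbp1, which represses neuronal exons in glia and progenitors, was 0.34 ± 0.07 higher at 4.7 months (adjusted p = 0.00359) and 0.34 ± 0.09 higher at 6.1 months (adjusted p = 0.014). At 6.1 months Rbfox1 was at -0.21 ± 0.04 (adjusted p = 0.00122), Srpk1, a kinase of SR proteins, at -0.26 ± 0.06 (adjusted p = 0.00436), and Qk, which glia use, at 0.19 ± 0.05 (adjusted p = 0.0166). Pabpc1, the cytoplasmic poly(A)-binding protein, was 0.20 ± 0.04 higher in rTg4510 than tTA mice, all 6 above every tTA mouse (adjusted p = 0.00129), but it was not called against DN mice, and in tTA mice it was 0.19 below DN mice, as a difference of -0.187 ± 0.036 (adjusted p = 0.00106). Khdrbs2, a STAR protein gene of neurons, gave -0.31 ± 0.08 against tTA mice at 6.1 months (adjusted p = 0.00554) and -0.69 ± 0.08 against DN mice (adjusted p = 7.78e-08), while tTA mice were at -0.42 ± 0.10 (adjusted p = 0.00817) and -0.38 ± 0.07 (adjusted p = 0.000267) against DN mice at 4.7 and 6.1 months.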

How the data were processed

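Hippocampal total RNA from 76 female mice was amplified, labelled with biotin and hybridised to Affymetrix mouse arrays, 1 per mouse. The authors had deposited RMA values on the log2 scale. RMA equalises array distributions, so that a shift of all genes together would not be seen. No version of RMA is given in the sources used here. No raw scans were used. Groups follow the genotype and age in the labels. Each mouse is a separate animal, and the number of arrays limits the precision. The members and the gene lists were chosen with earlier results of these data known.

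Of 22716 probe sets, 90 controls were left out. A gene was named from the array's platform annotation where a probe set had 1 symbol (18003 probe sets, with several for 287 and none listed for 4336). Rbm3, Srsf5, Srsf7 and other members of these families were not listed and are not analysed here, so that a planned comparison of Cirbp with Rbm3 was not made. Of the 63 probe sets used, 8 are of types that can bind related sequences.

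limma 3.58.1 in R 4.3.3 fitted a mean per group, with the 3 genotypes of an age (tTA and DN at 10.7 months) or the 3 ages of a genotype in 1 fit, and p-values were adjusted by Benjamini-Hochberg over 22626 probe sets. Scores of lists are means of log2 signal over the genes measured. Correlations used 100000 permutations within groups in Python 3.11.15 with numpy 2.4.6, scipy 1.17.1 and pandas 2.3.3, and plots matplotlib 3.10.9. Promoters are RefSeq's. In each comparison Cirbp, up to 10 called members with the greatest rise, up to 10 with the greatest fall and the largest difference in each role were eligible to be named, with up to 5 called each way and 2 uncalled genes of the other splicing list. Other probe sets and other genes were named after their values were seen. Other settings tried were centred arrays, quantile normalisation, a model without moderated variances, antilog values, all 9 groups in a fit, brighter probe sets only, the mean of a gene's probe sets, the choroid plexus score as covariate, and each array left out. Microglia and CA1 pyramidal scores as covariates were added after seeing the data. The fits were tested on simulated data.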

Additional observations from a re-analysis of the deposited data

Results flagged for a closer look

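Among 216 sets of values of a called gene, Cirbp or the mean of all 63 genes within a group, 18 had a mouse whose gap to its nearest neighbour, over the range of the group, passed Dixon's 95% critical value. Chance gives about 1 in 20 groups, here 10.8.

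A mouse of the 10.7 month DN group was lowest for Hnrnpm (6.27, the next 6.72), Hnrnpr (8.01, the next 8.28) and the mean of all 63 genes (8.06, the next 8.17). Mouse 21 of the 6.1 month tTA group, the array of lowest correlation with its group, was lowest for Rbm18 (5.54, the next 6.57) and Srsf10 (4.43, the next 5.58). Rbm18 also had a low mouse in the 10.7 month tTA group (6.82), the 4.7 month rTg4510 group (mouse 42, 6.79) and the 6.1 month rTg4510 group (mouse 75, 6.75).

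In rTg4510 mice of 4.7 months Rbm43 was lowest in mouse 37 (7.23, the next 7.56), Rbm14 lowest in mouse 39 (6.71) and Rbm28 highest in mouse 41 (6.42). Hnrnpul2 was lowest in rTg4510 mouse 7 of 6.1 months (9.62, the next 9.88), and Rbm22 in rTg4510 mouse 87 of 1.9 months (6.90). In tTA mice Hnrnpa3 was lowest in mouse 69 of 4.7 months (9.27), Hnrnpl lowest in mouse 22 of 6.1 months (8.78), Hnrnpd highest in a mouse of 10.7 months (9.14) and Sf3a1 highest in mouse 65 of 4.7 months (7.86). In DN mice Sf3a1 was highest in mouse 79 of 6.1 months (7.83).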

How the results depend on the processing

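The shares of all genes called under the settings below are not given here. The number of the 63 genes called moved by over 1.5 times as follows, and the cause was not tested. For rTg4510 minus tTA at 4.7 months (1) it was 2 with centred arrays, 3 with the mean of a gene's probe sets, and 0 with the microglia and 0 with the CA1 pyramidal score as covariate. For rTg4510 minus tTA at 6.1 months (6) it was 11 with centred arrays, and 0 and 0 with these covariates. For rTg4510 minus DN it was 1 and 1 with them at 4.7 months (12), and 0 and 0 at 6.1 months (11). For tTA minus DN at 4.7 months (4) it was 7 on the linear scale, 7 with all 9 groups in a fit and 7 with brighter probe sets only. For tTA minus DN at 6.1 months (1) it was 3 on the linear scale, 3 with brighter probe sets, and 2 with the plain model, centred arrays, all groups, mean probe sets, the choroid plexus and the microglia score. For rTg4510 at 6.1 minus 1.9 months (1) it was 2 on the linear scale, with brighter probe sets, with mean probe sets and with the microglia score, and 0 with the CA1 score. For 4.7 minus 1.9 months (0) it was 1 on the linear scale, with mean probe sets and with the choroid plexus score, 2 with brighter probe sets, and 4 with all groups and with the microglia score. For age in rTg4510 mice (2) it was 1 with centred arrays and with mean probe sets, 4 with all groups and 0 with the CA1 score. For age in DN mice (2) it was 5 with brighter probe sets and with the microglia score, 4 with the choroid plexus score and 1 with mean probe sets.

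With the microglia score, added after seeing the data like the CA1 score, differences changed sign for Rbm22 (0.02), Sf3a1 (0.024) against DN mice at 4.7 months, Sf3b3 (0.062) and Snrpn (0.138) against tTA mice at 6.1 months, and Rbm22 (0, above 0 before rounding), Sf3b3 (0.004), Hnrnpa3 (0.182) and Hnrnpul2 (0.252) against DN mice at 6.1 months. With the CA1 score they did so for Rbm22 at 4.7 months (0.046) and Hnrnpul2 at 6.1 months (0.026) against DN mice and Rbm42 against tTA mice (0.102). A probe set of Rbm42 gave 0.066. These scores hardly overlap between rTg4510 and control mice, so that a fit with them has little to separate score from genotype.

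Leaving out each array gave 1 to 2 genes for rTg4510 minus tTA at 4.7 months and 4 (without rTg4510 mouse 10) to 8 (without mouse 11) at 6.1 months, 7 (without DN mouse 72) to 12 and 9 to 12 for rTg4510 minus DN, 2 (without DN mouse 59) to 6 (without DN mouse 55), 1 to 2 and 0 for tTA minus DN at 4.7, 6.1 and 10.7 months, 0 (without mouse 75) to 2 and 0 to 2 for 6.1 and 4.7 minus 1.9 months, and 0 to 4, 0 and 1 to 3 for age in rTg4510, tTA and DN mice. The interaction stayed at 0. Rbm43 stayed called against tTA mice under each alternative but the 2 scores added later. No paired analysis was possible because each mouse has a number of its own, shared by no other group.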
